A study of Homo sapiens with 6 samples.

Results

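The genes described here are MMP1 and a small set of proteases, inhibitors and receptors that act on the extracellular matrix and on plasminogen: MMP1, MMP2, MMP14, TIMP2, TIMP3, PLAU, PLAUR and PLAT. They were taken by gene symbol from a table of 18969 genes. Of the 8 symbols, 6 had a row there, all 6 passed the filter on low counts, and 15046 genes in all were tested. MMP2 and TIMP3 had no row among those analysed here. Polyadenylated RNA had been sequenced from HK-2 cells, a human line derived from the epithelium of the renal proximal tubule. All 6 libraries came from cells given 20 µM cisplatin, a DNA-crosslinking chemotherapy drug that is toxic to the tubule. The 3 control libraries came from wild-type cells. The other 3 libraries are labelled as overexpressing NFE2L1, a transcription factor known for switching on proteasome genes. The labels do not give the vector or promoter, whether the cells were clones, or how long they were exposed to the drug, and no culture without cisplatin was analysed here.

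MMP1 is the interstitial collagenase, a secreted enzyme that cuts fibrillar collagen once its propeptide has been removed. MMP14 is a membrane-anchored metalloproteinase, also called MT1-MMP, that sits at the cell surface and, together with TIMP2, activates proMMP2. Plasminogen is turned into plasmin by urokinase (PLAU), which acts at the cell surface when held by its receptor PLAUR, and by tissue-type plasminogen activator (PLAT). Plasmin degrades fibrin and matrix proteins and can activate several prometalloproteinases, which links both systems. In the kidney these enzymes are studied for their part in the turnover of interstitial matrix after injury.

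Each library held between 16865460 and 23458333 counted reads. NFE2L1 itself stood at 234.2 to 253.4 CPM in controls (counts scaled to a common library size with TMM factors) and at 244.7, 744.0 and 339.5 CPM in the overexpression-labelled libraries 1, 2 and 3. Library 1 was therefore no higher than the controls, and each direction given here compares libraries by their label. Between the labelled groups NFE2L1 had a log2 fold change of 0.86, which did not pass the test described below (adjusted p = 0.115 by edgeR). The fold change of a gene also moved with its length across the whole table, from a median log2 fold change of 0.61 in the shortest of 10 equal bins of genes to -0.49 in the longest. Of the epithelial and tubule markers, 9 of 13 had a row, with KRT8 and KRT18 abundant and the tubule transporters AQP1 and SLC34A1 near 0. Their summed level was 917.8 to 980.9 FPKM (reads scaled to gene length and library size) in controls and 1161 to 1415 FPKM in the overexpression-labelled libraries. The FPKM of all genes together also summed higher there, at 605615 to 626091, against 484861 to 519524 in controls. Most of the marker sum was KRT8 and KRT18, and single markers went both ways. EPCAM averaged 33.1 FPKM in controls and 48.8 in the other group, and CDH2 40.6 and 23.4 FPKM, and neither passed the test described below. The summed level of the 5 fibroblast markers with a row, of 7 listed, was 15.0 to 18.4 FPKM in controls and 5.66 to 7.29 FPKM in the other group. Most of this was LUM, while COL3A1 and PDGFRB were near 0. None of 5 endothelial markers had a row, and the 3 leukocyte markers with a row summed to 1.03 to 3.15 FPKM. The part of these shifts in the results below was not tested.

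Of the 6 genes measured, MMP1 and PLAT fell in the overexpression-labelled libraries, 0 rose, and MMP14, TIMP2, PLAU and PLAUR did not pass the test (edgeR quasi-likelihood test, Benjamini-Hochberg adjusted p under 0.05 over all genes tested). Over all genes, 9.49% were called lower and 9.62% higher. The median log2 fold change of the 6 genes was -0.12, beside 0.03 over all genes. MMP1 fell 4.34-fold and PLAT 1.75-fold. MMP14 and PLAUR differed widely among the overexpression-labelled libraries, and TIMP2 hardly varied at all. In bulk RNA, fewer cells that transcribe a gene and less of its RNA per cell cannot be told apart.

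On the FPKM scale, which allows levels of different genes to be set side by side, PLAU was the most abundant of the 6 in every library. In controls its mean was 297.7 FPKM, followed by PLAUR at 82.8, TIMP2 at 65.0, MMP1 at 56.6, MMP14 at 54.5 and PLAT at 49.6 FPKM. The control range of MMP1, 22.4 to 77.6 FPKM, overlapped those of PLAUR, TIMP2, MMP14 and PLAT, and MMP14 overlapped TIMP2 and PLAT. All control values of PLAUR lay above those of TIMP2, and those of TIMP2 above PLAT. In the overexpression-labelled libraries the order was PLAU at 307.4, PLAUR at 82.9, TIMP2 at 62.7, MMP14 at 38.8, PLAT at 25.6 and MMP1 at 11.8 FPKM. There MMP1 was below PLAT in each of the 3 libraries, while PLAUR, TIMP2 and MMP14 overlapped, as did MMP14 and PLAT.

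**Figure D1:**
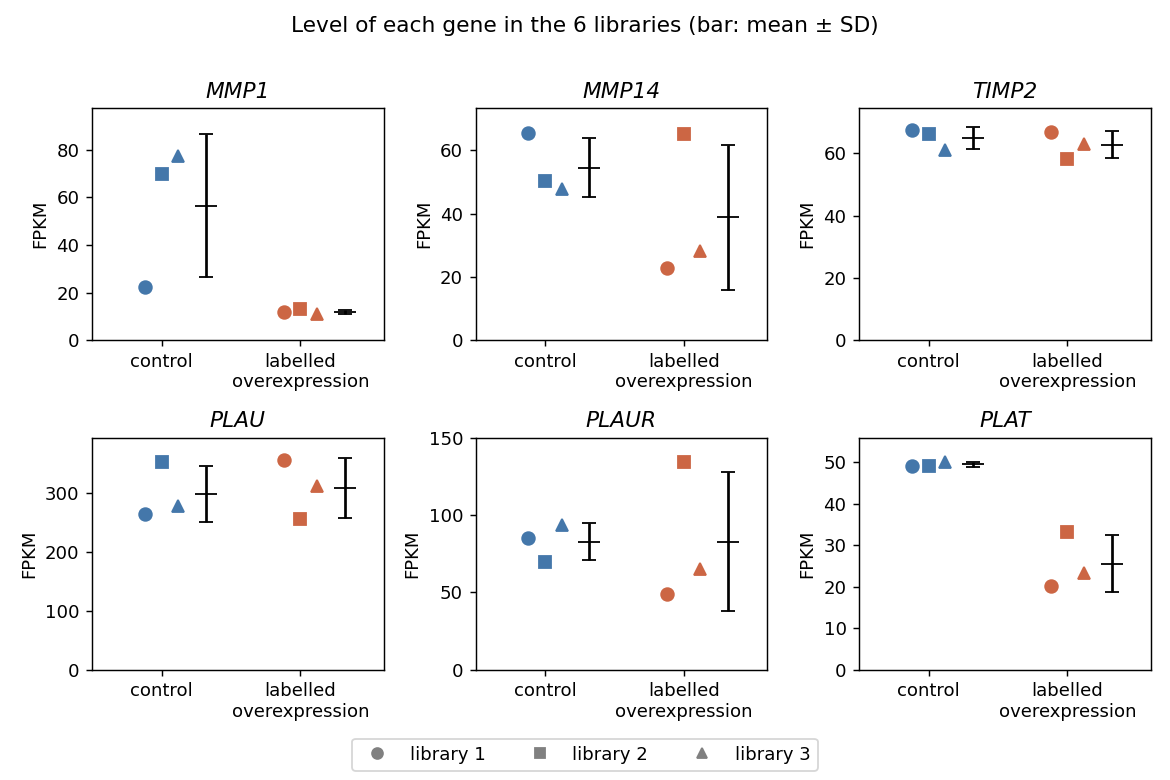
Level of MMP1, MMP14, TIMP2, PLAU, PLAUR and PLAT in FPKM (y axes from 0) in the 3 control libraries (blue) and the 3 overexpression-labelled libraries (orange), with marker shapes for libraries 1, 2 and 3 and bars for the mean ± SD. All 3 orange points lie below all blue points for MMP1 and PLAT, and the orange square, library 2, is the highest point of its group for MMP14, PLAUR and PLAT.

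MMP1 (ENSG00000196611, GRCh38.p13 chromosome 11, 102789401 to 102798160, minus strand) was counted 988, 3019 and 3034 times in control libraries 1, 2 and 3. In libraries 1, 2 and 3 labelled overexpression it was counted 386, 596 and 462 times. Scaled to library size, controls held 42.6, 132.3 and 143.7 CPM, against 23.9, 27.9 and 21.6 CPM. All 3 overexpression-labelled libraries lay below all 3 controls, and control 1 lay closer to them than to the other controls. Such a separation was seen in 20.9% of all genes tested.

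The collagenase averaged 106.2 ± 55.4 CPM in controls, against 24.5 ± 3.17 CPM (SD over 3 libraries each). Its coefficient of variation was thus 52.2% among controls and 13% in the other group, where counting error alone would give 4.61%. This amounted to a log2 fold change of -2.12 (SE 0.40, 95% interval -3.02 to -1.21), which passed (adjusted p = 0.0141 by edgeR). By this value MMP1 ranked at place 20 from the bottom among the 15046 genes tested. Permuting the 6 log2 values gave an exact two-sided p of 0.1, and no smaller p is possible with 3 libraries against 3. For MMP1 the authors' deposited table gives -2.15 on the log2 scale and an adjusted p of 2.64e-06.

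Control 1, in which MMP1 was lowest among controls, made the fall smaller. Leaving that library out moved the log2 value to -2.50 (adjusted p = 0.0405 by edgeR), at a setting where 0.00643% of all genes were called lower. Leaving out control 2 gave -1.93, which did not pass (adjusted p = 0.0694 by edgeR), and at that setting 0% of genes were called lower. Without control 3 the value was -1.84 (adjusted p = 0.0436 by edgeR, 4.49% of genes called lower). Without library 1, 2 or 3 labelled overexpression it was -2.10, -2.23 and -2.04, each of which passed, where 8.57%, 12.2% and 4.37% of genes were called lower.

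MMP1 is 1.97 kb long by the ratio of counts to FPKM, in a length bin whose median log2 fold change was 0.24, so it moved against the genes of its length. With an offset for gene length the log2 fold change was -2.34 (adjusted p = 0.0260 by edgeR, 3.37% of genes called lower). Once GC content was added to the offset it was -2.07, just short of the threshold (adjusted p = 0.0509 by edgeR). That setting called 0.228% of genes lower and 0.469% higher, and a variant that gave genes of unknown GC content the median, chosen after seeing the data, called 0.226% lower. A pseudogene, WTAPP1, lies antisense to MMP1 and was not analysed here, and the sources used here do not say whether counting was by strand.

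MMP1 lies in a cluster of metalloproteinase genes on chromosome 11, of which 5 of 9 listed genes had a row. MMP10, at 8.77 kb from MMP1, and MMP3, at 37.6 kb, both of them stromelysins, stood below 0.2 FPKM on average in both groups and were too low to test. MMP13, collagenase 3, at 144.8 kb, averaged 0.359 FPKM in controls and 0.218 FPKM in the other group (log2 fold change -0.57, adjusted p = 0.321 by edgeR). MMP7, matrilysin, at 258.7 kb, was the only abundant neighbour, with 35.6, 37.7 and 36.5 FPKM in controls and 30.9, 16.5 and 34.2 FPKM in the overexpression-labelled libraries. The lowest of these was library 2, the groups overlapped on the CPM scale, and the log2 fold change of -0.30 did not pass (adjusted p = 0.405 by edgeR). Among the cluster's 3 tested genes, MMP1 alone passed.

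The genes whose pattern over the 6 libraries was most like that of MMP1 were PDK4, NFAT5, ZNF841, FAM171B and GTF2I, out of 9826 protein-coding genes with a mean of at least 2 FPKM in either group. The measure was the mean absolute difference of centred log2 CPM from MMP1, which ran from 0.444 for PDK4 to 0.516 for GTF2I. PDK4, a kinase that inhibits pyruvate dehydrogenase, stood at 2.52, 3.19 and 6.15 FPKM in controls and 1.28, 1.01 and 1.56 FPKM in the other group. Like MMP1, it was lowest among controls in library 1, whereas NFAT5 and GTF2I were lowest in control 3. The measure also takes in the difference between the groups, so genes with a large fall rank high. NFAT5, which drives the response to hypertonic stress, stood at 2.79, 3.64 and 2.30 FPKM against 0.602, 0.388 and 0.537 FPKM. These genes were ranked by likeness, and no test applies to them.

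MMP14 (ENSG00000157227, chromosome 14, 22836560 to 22849041, plus strand), the membrane-anchored protease, was counted 5410, 4094 and 3512 times in controls and 1431, 5661 and 2249 times in the overexpression-labelled libraries. Scaled, these were 233.0, 179.4 and 166.3 CPM against 88.5, 265.0 and 105.3 CPM. Libraries 1 and 3 labelled overexpression lay below all controls and library 2 above all of them. MMP14 averaged 192.9 ± 35.3 and 152.9 ± 97.4 CPM (SD, n = 3 each), so the coefficient of variation was 18.3% in controls and 63.7% in the other group. A log2 fold change of -0.33 (SE 0.38, 95% interval -1.18 to 0.51) did not pass (adjusted p = 0.555 by edgeR). An exact permutation test gave p = 0.4. The result turned on library 2, which held the most NFE2L1. With that library left out, the log2 value was -0.998 (SE 0.18) and the gene was called lower (adjusted p = 0.00697 by edgeR). At that setting 12.2% of all genes were called lower. Leaving out library 1 gave -0.06, which did not pass.

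TIMP2 (ENSG00000035862, chromosome 17, 78852977 to 78925387, minus strand), the inhibitor that binds MMP14 and bridges it to proMMP2, had the smallest log2 fold change of the 6 genes. Controls held 237.8, 232.7 and 209.1 CPM and the overexpression-labelled libraries 255.1, 234.0 and 232.2 CPM. The groups overlapped, with means of 226.6 ± 15.3 and 240.4 ± 12.7 CPM (SD, n = 3 each). That fold change, 0.09 with a 95% interval of -0.23 to 0.40, did not pass (adjusted p = 0.689 by edgeR). The sign is not firm, since on the FPKM scale the means were 65.0 ± 3.49 and 62.7 ± 4.32. Rows that overlap TIMP2 in position, CEP295NL and an unnamed gene, held at most 15 counts in any library.

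PLAU (ENSG00000122861, chromosome 10, 73909177 to 73917496, plus strand), the urokinase gene, was counted 12911 to 18118 times per library and was the best measured of the 6. Controls stood at 593.3, 794.2 and 611.3 CPM and the overexpression-labelled libraries at 869.3, 655.6 and 738.4 CPM. The ranges overlapped, and library 1 labelled overexpression was the highest of all. Group means of 666.3 ± 111.1 and 754.4 ± 107.8 CPM (SD, n = 3 each) differed by 0.18 on the log2 scale, with a 95% interval of -0.21 to 0.57, which did not pass (adjusted p = 0.484 by edgeR). The sign turned with the length and GC offset, to -0.04, and with FPKM rescaled to a common sum, to -0.259. An antisense row, C10orf55, held 31 to 84 counts.

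PLAUR (ENSG00000011422, chromosome 19, 43646095 to 43670547, minus strand), the urokinase receptor, was counted 2599, 2097 and 2542 times in controls and 1133, 4304 and 1932 times in the overexpression-labelled libraries. These were 111.9, 91.9 and 120.4 CPM against 70.0, 201.5 and 90.5 CPM. As with MMP14, libraries 1 and 3 labelled overexpression lay below all controls and library 2 above all of them. The means hid this spread, at 108.1 ± 14.6 and 120.7 ± 70.7 CPM (SD, n = 3 each), and on the FPKM scale they were 82.8 and 82.9. The log2 fold change of 0.16, with a 95% interval of -0.63 to 0.95, did not pass (adjusted p = 0.774 by edgeR), and the exact permutation test gave p = 1. The sign was not firm and turned at 8 of the 17 other settings. It was -0.43 without library 2 (adjusted p = 0.0974 by edgeR), -0.27 with the length offset, -0.44 with the length and GC offset, and -0.12 with limma on log2 FPKM at either pseudocount. None of these passed.

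Library 2 labelled overexpression held 2.74 times as much MMP14 and 2.53 times as much PLAUR as the mean of libraries 1 and 3. On the log2 scale these excesses, 1.46 and 1.34, ranked at places 250 and 343 among the 15046 genes tested, where the median was close to 0. PLAT, at 1.64 times, leaned the same way, while the log2 excess was 0.295 for MMP1, -0.06 for TIMP2 and -0.29 for PLAU. Library 2 was also the one with the most NFE2L1, and 1 library cannot tell this apart from anything else particular to it.

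The 250 bases before a transcription start given by RefSeq on GRCh38.p14 were read for 4 of the 8 genes. Windows of the other genes were not read, which does not mean that RefSeq lacks them. The bases are shown for MMP14 and PLAUR, which shared the excess in library 2, and for PLAU, which did not. Capitals mark matches on either strand to an AP-1 site (TGANTCA), an antioxidant response element core (TGACNNNGC), a GC box (GGGCGG) or a TATA box (TATAAA). PLAU has a pair of start sites among the windows read. The PLAUR window and both PLAU windows lie inside the spans given here for the counted genes, which begin further upstream. The MMP14 window overlaps the first bases of its span. In order, the windows are chr14:22836335-22836584 on the plus strand, chr19:43670170-43670419 on the minus strand, and chr10:73910360-73910609 and chr10:73910882-73911131 on the plus strand.
MMP14: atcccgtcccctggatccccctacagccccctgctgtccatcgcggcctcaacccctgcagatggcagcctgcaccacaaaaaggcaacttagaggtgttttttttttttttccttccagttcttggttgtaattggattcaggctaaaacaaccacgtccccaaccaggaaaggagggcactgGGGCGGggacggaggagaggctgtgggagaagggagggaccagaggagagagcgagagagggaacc
PLAUR: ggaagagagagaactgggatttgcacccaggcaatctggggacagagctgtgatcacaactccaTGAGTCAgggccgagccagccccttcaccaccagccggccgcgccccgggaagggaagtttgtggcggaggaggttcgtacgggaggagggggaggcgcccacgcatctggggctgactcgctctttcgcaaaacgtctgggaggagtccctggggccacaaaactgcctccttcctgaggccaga
PLAU, upstream start: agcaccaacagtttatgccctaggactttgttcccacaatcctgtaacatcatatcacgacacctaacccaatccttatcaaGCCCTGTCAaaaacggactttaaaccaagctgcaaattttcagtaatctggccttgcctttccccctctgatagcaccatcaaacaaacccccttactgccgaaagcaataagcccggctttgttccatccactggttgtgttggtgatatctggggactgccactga
PLAU, downstream start: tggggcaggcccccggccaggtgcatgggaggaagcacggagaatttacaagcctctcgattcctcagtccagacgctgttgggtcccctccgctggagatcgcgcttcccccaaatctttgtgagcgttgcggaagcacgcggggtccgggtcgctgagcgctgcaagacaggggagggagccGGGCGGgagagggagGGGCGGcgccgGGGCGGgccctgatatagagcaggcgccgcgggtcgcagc
Positions are those of the first base of a match, counted backwards from the base before the start. PLAUR held 1 AP-1 match, at -186, where 6.57% of the 35116 promoter windows searched hold one. MMP14 held 1 GC box, at -66, and the downstream PLAU window held 3, beside 42.6% of all windows with at least 1. The upstream PLAU window held 1 antioxidant response element core, found in 10.9% of windows, and no TATA box was in any of these windows, beside 10.7% of all. MMP14 and PLAUR had none of the 4 motifs in common in these windows. A match says only that the letters are there.

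PLAT (ENSG00000104368, chromosome 8, 42174718 to 42207709, minus strand), the gene of tissue-type plasminogen activator, was counted 3369, 3308 and 3049 times in controls and 1046, 2387 and 1540 times in the overexpression-labelled libraries. Scaled, controls held 145.1, 145.0 and 144.4 CPM and the other group 64.7, 111.7 and 72.1 CPM. All 3 overexpression-labelled libraries lay below all controls, with library 2 nearest to them. PLAT averaged 144.8 ± 0.388 and 82.8 ± 25.3 CPM (SD, n = 3 each). On the log2 scale PLAT fell by 0.81 (SE 0.21, 95% interval -1.29 to -0.32, adjusted p = 0.0326 by edgeR). The exact permutation test gave p = 0.1, the smallest possible. For PLAT the authors' deposited table gives -0.84 and an adjusted p of 0.00595.

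The call on PLAT was less firm than its direction, which was the same at each of the 17 other settings. With an offset for length the log2 fold change was -0.77 (adjusted p = 0.0506 by edgeR), and with the length and GC offset it was -0.61 (adjusted p = 0.161 by edgeR). Those settings called 3.37% and 0.228% of all genes lower. Without library 2 labelled overexpression it was -1.09 and passed (adjusted p = 0.00457 by edgeR, 12.2% of genes called lower). Each other library, when left out, took the call away, with adjusted p from edgeR of 0.119, 0.111 and 0.0768 without control 1, 2 and 3, and of 0.0600 and 0.102 without library 1 and 3 labelled overexpression. In the same order, 0.00643%, 0%, 4.49%, 8.57% and 4.37% of all genes were called lower. Without control 1 or 2 there were 1 and 0 calls over all genes, and the 1 gene called without control 1 was MMP1. PLAT is 3.06 kb long, in a length bin with a median log2 fold change of -0.05.

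**Figure D2:**
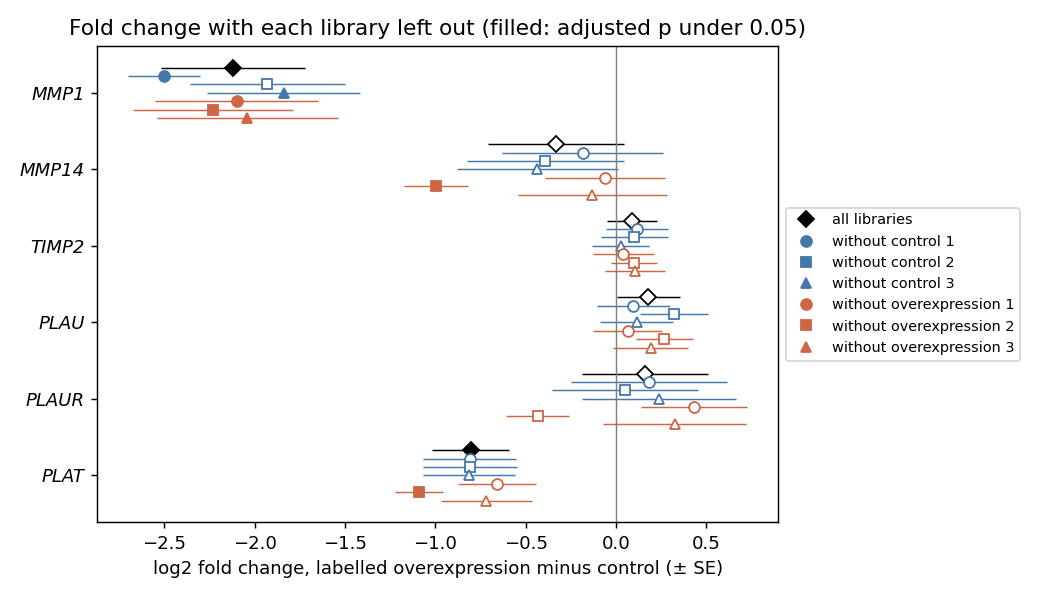
Log2 fold change (x axis, labelled overexpression minus control, bars ± SE) of each gene with all 6 libraries (black) and with 1 library left out (blue for a control, orange for a library labelled overexpression), filled where the edgeR adjusted p was under 0.05. MMP1 stays between -2.50 and -1.84, while MMP14 and PLAUR move to -0.998 and -0.43 when library 2 labelled overexpression is left out.

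Both MMP1 and PLAT were called lower with DESeq2 scaling in edgeR, with DESeq2 itself, without the filter, and with limma on log2 FPKM. The share of all genes called lower was 9.83% with DESeq2 scaling, 13.9% with DESeq2, 7.07% without the filter, 16.3% with limma at a pseudocount of 1, and 15.4% at 0.1. With FPKM rescaled to a common sum it was 33.7%, so a fall there says less about any 1 gene. None of MMP14, TIMP2, PLAU and PLAUR was called at any of these.

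**Figure D3:**
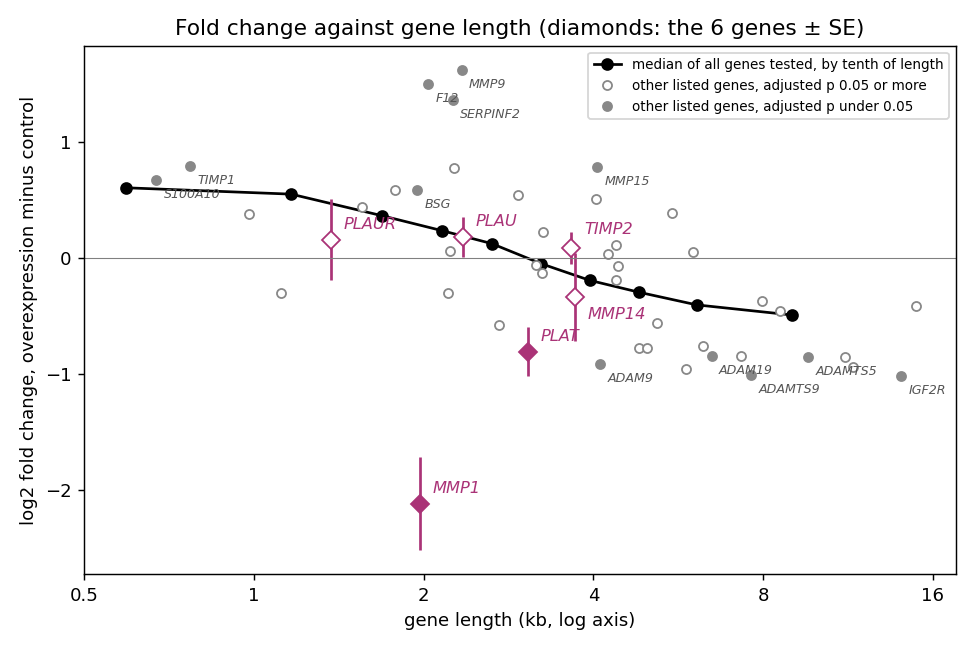
Log2 fold change (y axis, labelled overexpression minus control) against gene length in kb (log x axis) for the 6 genes (purple diamonds ± SE), the other listed genes that were tested (grey circles) and the median of all genes in 10 length bins (black line); filled symbols have an edgeR adjusted p under 0.05. The line falls from 0.61 to -0.49, and MMP1 at -2.12 lies far below it at its length, whereas PLAU at 0.18 lies close to it.

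Ratios of levels within a library do not depend on the scaling of libraries, but they do pair genes of different length. The length bins of TIMP1, PLAUR, MMP1, PLAU, PLAT and MMP14 had median log2 fold changes of 0.61, 0.55, 0.24, 0.24, -0.05 and -0.19, and the part of this trend in the ratios was not tested. The ratio of MMP1 to TIMP1, the secreted inhibitor, was 0.101, 0.272 and 0.220 in controls and 0.0270, 0.0268 and 0.0274 in the overexpression-labelled libraries. The groups did not overlap, and the 3 ratios of the labelled group were nearly equal although MMP1 and TIMP1 each varied between libraries. MMP14 to TIMP2 was 0.967, 0.761 and 0.785 against 0.342, 1.12 and 0.448, a ratio that overlapped and again was highest in library 2.

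Among the plasminogen genes, the ratio of the activators, PLAU to PLAT, was 5.34, 7.16 and 5.53 in controls and 17.6, 7.67 and 13.4 in the overexpression-labelled libraries, without overlap. PLAU to its receptor PLAUR ran from 2.97 to 5.04 in controls and from 1.90 to 7.25 in the other group. PLAUR to MMP14 was nearly constant in the overexpression-labelled libraries, at 2.14, 2.06 and 2.32, and above all controls, at 1.30, 1.39 and 1.96. This is the direction in which the length bins of the pair differ. Of the 8 ratios computed, 4 separated the groups, each with an exact permutation p of 0.1, the smallest possible, and none could pass a threshold of 0.05. Separation is common here: by CPM, 20.9% of all genes tested lay below every control and 21.8% above every control. How often ratios of other gene pairs separate was not counted, so the 4 are description only.

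**Figure D4:**
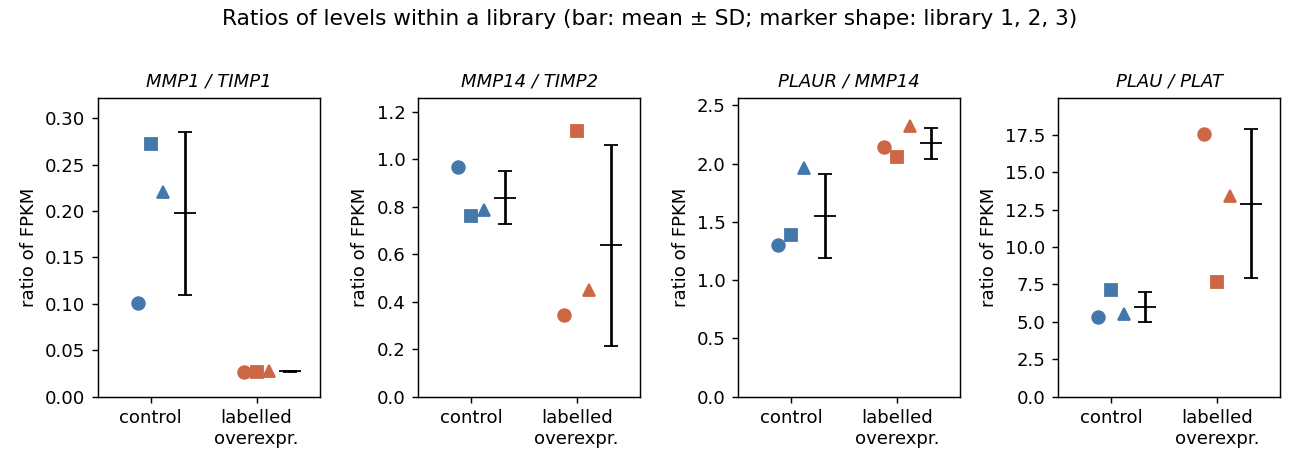
Ratios of FPKM within a library (y axes from 0) for MMP1 to TIMP1, MMP14 to TIMP2, PLAUR to MMP14 and PLAU to PLAT in controls (blue) and overexpression-labelled libraries (orange), with marker shapes for libraries 1, 2 and 3 and bars for the mean ± SD. MMP1 to TIMP1 falls to about 0.027 in all 3 orange points, and MMP14 to TIMP2 spans 0.342 to 1.12.

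Further genes of these systems were read from 4 lists, with 42 genes tested, of which 7 rose and 5 fell, where 9.62% of all genes rose and 9.49% fell. None of these calls held with the length and GC offset, where only 0.469% of all genes were called higher and 0.228% lower. With the offset for length alone, MMP15 and F12 kept their calls and the others did not. Their log2 fold changes were then 1.004 and 1.296 (adjusted p = 0.0299 and 0.0273 by edgeR). That setting called 1013 of 15046 genes. Of 8 other metalloproteinases tested, of 20 listed, 2 rose and 0 fell, with a median log2 fold change of -0.01. The gelatinase MMP9 rose at a very low level, from 0.295 ± 0.0746 to 0.812 ± 0.471 FPKM (SD, n = 3 each; log2 fold change 1.62, adjusted p = 0.0494 by edgeR). The membrane-type MMP15 rose from 3.71 ± 0.545 to 5.85 ± 1.01 FPKM (log2 fold change 0.79, adjusted p = 0.0344 by edgeR). With the length and GC offset their log2 fold changes were 1.03 and 0.42 (adjusted p = 0.210 and 0.383 by edgeR). MMP24, another membrane type, stood at 8.69 and 8.51 FPKM and did not pass. In controls MMP1 and MMP14 had the highest means of the metalloproteinases measured, followed by MMP7 at 36.6 FPKM, although MMP7 was above MMP1 in control 1.

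Of 6 inhibitors and controllers tested, of 8 listed, 2 rose and 0 fell, with a median log2 fold change of -0.02. TIMP1 rose, from 221.5, 256.5 and 353.4 FPKM in controls to 430.1, 480.7 and 395.6 FPKM (log2 fold change 0.80, adjusted p = 0.0269 by edgeR). All 3 overexpression-labelled libraries lay above all controls, as was so for 21.8% of all genes. BSG, or EMMPRIN, a surface protein known to induce metalloproteinases, rose from 182.4 ± 29.2 to 248.7 ± 35.3 FPKM (SD, n = 3 each; log2 fold change 0.59, adjusted p = 0.0474 by edgeR). With the length and GC offset TIMP1 was at 0.07 and BSG near 0 on the log2 scale (adjusted p = 0.844 and 0.995 by edgeR), and the length bin of TIMP1 had a median of 0.61. TFPI2, a matrix-bound inhibitor of serine proteases, averaged 256.7 and 188.2 FPKM (log2 fold change -0.30, adjusted p = 0.331 by edgeR), and SPOCK1, a matrix proteoglycan, 24.9 and 13.3 FPKM (-0.78, adjusted p = 0.0597 by edgeR). FURIN, the convertase that activates MMP14, stood at 12.2 and 11.3 FPKM and did not pass.

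Of 11 further plasminogen genes tested, of 17 listed, 3 rose and 1 fell, with a median log2 fold change of 0.44. S100A10, which with ANXA2 forms a surface receptor for plasminogen and PLAT, rose from 933.1 ± 64.3 to 1352 ± 143 FPKM (SD, n = 3 each; log2 fold change 0.67, adjusted p = 0.0162 by edgeR). ANXA2 averaged 669.2 and 823.3 FPKM (0.44, adjusted p = 0.0571 by edgeR), and ENO1, a glycolytic enzyme that also binds plasminogen, 1299 and 1767 FPKM (0.59, adjusted p = 0.0784 by edgeR). F12, coagulation factor XII, rose from 1.30 ± 0.184 to 3.35 ± 0.264 FPKM (SD, n = 3 each; log2 fold change 1.504, adjusted p = 0.0116 by edgeR). SERPINF2, the plasmin inhibitor, rose from 0.566 to 1.33 FPKM (log2 fold change 1.36, adjusted p = 0.0272 by edgeR). With the length and GC offset S100A10 was at -0.02, in a length bin with a median of 0.61, while F12 was at 0.83 and SERPINF2 at 0.89 (adjusted p = 0.969, 0.0964 and 0.215 by edgeR). IGF2R, a receptor that also binds PLAUR, fell from 18.1 ± 4.54 to 8.16 ± 0.656 FPKM (log2 fold change -1.02, adjusted p = 0.0144 by edgeR), and stood at -0.62 with the offset (adjusted p = 0.105 by edgeR).

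SERPINE2, an inhibitor of PLAU and of other serine proteases, averaged 134.9 and 127.8 FPKM (log2 fold change 0.06, adjusted p = 0.845 by edgeR) and did not pass. PLGRKT, a plasminogen receptor, stood at 9.76 and 11.6 FPKM and did not pass either.

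Among the ADAM and ADAMTS genes, relatives of MMP1 that shed surface proteins or cut proteoglycans, 4 of 17 tested fell and 0 rose, of 28 listed, with a median log2 fold change of -0.75, beside 9.49% of all genes that fell. ADAM9 fell from 4.93 to 2.39 FPKM (log2 fold change -0.91, adjusted p = 0.0215 by edgeR) and ADAM19 from 5.35 to 2.71 FPKM (-0.85, adjusted p = 0.0179 by edgeR). ADAMTS9 fell from 14.3 to 6.55 FPKM (-1.003, adjusted p = 0.0419 by edgeR) and ADAMTS5 from 1.24 to 0.622 FPKM (-0.85, adjusted p = 0.0479 by edgeR). Of the rest, ADAM10, ADAM15, ADAM17, ADAMTS1 and ADAMTS3 had means of at least 5 FPKM in a group and did not pass, with log2 fold changes of -0.85, 0.55, -0.18, -0.56 and -0.75. These are mostly long genes, and with the length and GC offset their median was -0.18. With that offset ADAM9, ADAM19, ADAMTS9 and ADAMTS5 were at -0.38, -0.67, -0.63 and -0.14. The median of the 6 genes led by MMP1 was -0.51 there, beside 0.02 over all genes. These 6 ran from -2.07 for MMP1 to 0.08 for TIMP2, and 0 of them passed at that setting.

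Beside these falls, LUM, a fibroblast marker, fell from 16.3, 13.7 and 16.8 FPKM in controls to 4.55, 5.28 and 6.07 FPKM (log2 fold change -1.42, adjusted p = 0.0105 by edgeR). With the offset for length alone LUM was at -1.46 and passed (adjusted p = 0.0201 by edgeR, 3.37% of genes called lower). With the length and GC offset LUM was at -1.02 (adjusted p = 0.0505 by edgeR, 0.228% of genes called lower). LUM alone of 3 tested fibroblast markers passed. DCN, at only 0.105 FPKM in controls, had a log2 fold change of -1.62 (adjusted p = 0.0827 by edgeR), and COL1A1 one of 0.14 (adjusted p = 0.765 by edgeR). Among 7 tested epithelial markers KRT18, a keratin, was the 1 that passed, with a rise of 0.62 on the log2 scale (adjusted p = 0.0207 by edgeR), in a length bin with a median of 0.55. With the length and GC offset KRT18 was at 0.09 (adjusted p = 0.791 by edgeR). Control 1 was lowest of the controls in MMP1 and control 2 in LUM, and any link between MMP1 and LUM was not tested.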

How the data were processed

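Messenger RNA libraries were made from 2 µg of total RNA with a stranded kit (per the labels' protocols). Trimmomatic 0.36 and GRCh38 are named in the submitters' processing notes, while no aligner, counter or strand setting is named there. The deposited counts are whole reads without normalization, for 18969 genes with at least 10 counts in all (positions on GRCh38.p13). The FPKM values, also deposited, came from these counts, with 1 length for each gene in every library. The deposited log2 fold changes and adjusted p-values of the authors come with no stated test and are given only where their table is named.

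Genes were tested with edgeR 4.0.16 in R 4.3.3 (filterByExpr, TMM scaling, quasi-likelihood test on the group, Benjamini-Hochberg adjustment over 15046 genes). CPM are counts scaled with TMM factors, log2 values used a prior count of 2, and the biological coefficient of variation was 0.249. For single genes, exact two-sided p-values were also taken from all 20 ways to assign the libraries (permutation). The labels do not say whether libraries came from separate cultures, so the spread behind the p-values may be technical. Depth was 16865460 to 23458333 counts per library, and counting errors cover counting only. Members and gene lists were chosen with earlier results of these data known. Named genes were all members with a row, list genes that passed, list genes that did not pass with a mean of at least 5 FPKM in a group, and the 5 genes most like MMP1. Of the genes this rule takes from the lists, 1 is not reported here by name, nor are its ratios. Promoter windows came from RefSeq. DESeq2 1.42.0, limma 3.58.1 (FPKM of at least 1 in 3 libraries), offsets for length and GC content fitted with mgcv 1.9.3 (GC known for 98.45% of rows), a replicate block and leave-one-out fits were the alternatives. Same-numbered libraries did not deviate together (correlations of -0.01, -0.57 and 0.06), so the numbers were not taken as pairs.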

Additional observations from a re-analysis of the deposited data

How the results depend on the processing

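Of the 6 genes, 2 were called lower in edgeR, against 1 with the length offset, 0 with the length and GC offset (in both versions, of which the one with median GC was chosen after seeing the data), 0 with the replicate block, 0 with the length offset and block, and 0 to 3 when a library was left out. The log2 fold change of MMP1 was -2.07 in both versions of the length and GC offset (edgeR adjusted p = 0.0509 and 0.0507), -1.95 with the replicate block (0.0576), -2.18 with the length offset and block (0.101), and -2.50 to -1.84 with a library left out. The block does not follow a pairing in these data: it took the calls over all genes from 2876 to 0, with 4413 genes at an unadjusted p under 0.05. Leaving out control 1 or 2 left 1 and 0 calls over all genes, with 3962 and 3863 at an unadjusted p under 0.05.

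In the 4 other lists the 5 genes called lower became 0 with the length offset, both GC offsets, the block, and the block with the length offset, 11 with rescaled FPKM, and 0 to 9 with a library left out. The 7 called higher became 2 with the length offset, 0 with both GC offsets and both blocks, 4 with limma at either pseudocount, 1 with rescaled FPKM, and 0 to 6 with a library left out. With limma at a pseudocount of 1, the median log2 fold change over all genes tested was -0.10 before rescaling and -0.35 after, beside 0.03 in edgeR. Signs turned for TIMP2 on FPKM (-0.051 and -0.0503 at pseudocounts of 0.1 and 1, -0.35 rescaled) and for PLAU with the GC offsets (-0.0424 and -0.0421) and rescaling (-0.259). PLAUR turned to -0.442 and -0.444 with the GC offsets, -0.389 with the length offset and block, -0.273 with the length offset, -0.123, -0.12 and -0.42 with limma at 0.1, 1 and rescaled, and ran from -0.434 to 0.431 with a library left out. None of these passed, and the cause was not tested. The direction of MMP1, MMP14 and PLAT was the same at all 17 alternatives.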

Other observations

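PLAT varied less between controls than counting alone would give on average: its coefficient of variation was 0.268% over the 3 control libraries, where counting error at these depths is 1.76%. A spread taken from 3 libraries is itself imprecise, and how many other genes varied so little was not counted. In the libraries labelled overexpression the counting error was 2.56%. The test of PLAT did not use this spread alone, since edgeR shares its estimate between genes and groups.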
